A study of Macaca mulatta with 24 samples.

Results

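DNA methylation in omental white adipose tissue (WAT) was compared between 12 female rhesus macaques with testosterone implants and 12 with cholesterol implants. The comparison used all 24 animals of the series and all 841143 CpG sites of its methylation table. Members were chosen by implant alone: the testosterone animals were the T group (T 13 to T 18) and the T+WSD group (T+WSD 7 to T+WSD 12), and the cholesterol animals were the controls (C 1 to C 6) and the WSD group (WSD 19 to WSD 24). The C and T groups ate monkey chow, and the WSD and T+WSD groups ate a high-fat Western-style diet. Each group held 6 animals, the labels give an age of 4 years for all of them, and the implants had been in place for 3 years when the omental biopsies were taken. The study's methods describe the animals as older than the labelled age, and post-pubertal, at biopsy. Diet was the second factor of the model, so that the testosterone (T) difference is the average of T minus C on chow and T+WSD minus WSD on the Western-style diet. Because 6 animals of each implant group ate each diet, a difference between diets alone could not appear as a T difference. The animal numbers run from 1 to 12 in C and T+WSD and from 13 to 24 in T and WSD. This number series was balanced in the T difference averaged over diets. Within a diet, the T difference cannot be told apart from a difference between the number series. The same holds for a difference between diets in the T difference.

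Testosterone is an androgen that binds the androgen receptor, a transcription factor present in fat cells and in their precursors. Raised androgens in females (hyperandrogenemia) are a feature of polycystic ovary syndrome and are associated with visceral fat gain and insulin resistance. Methylation of the cytosine in CpG dinucleotides is a mark that is copied when cells divide. CpG-dense promoters are mostly unmethylated, most of the remaining genome is highly methylated, and intermediate levels are common at regulatory elements whose state differs between cells.

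As a model, the implants added an androgen on top of either diet, and the 6 animals in each group had been picked by the investigators as representative of the metabolic findings in a larger group. The biopsies were bulk tissue, in which a change in the mixture of cell types and a change of methylation within a cell type cannot be told apart. The identity of the tissue was not checked against marker genes, since no gene annotation of the rhesus build of these data (rheMac8) was used here, and regions are given by position without genes.

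Reduced-representation bisulfite sequencing (RRBS) reads the CpGs next to MspI cut sites, and each value is the percentage of reads in which a CpG was methylated. Values were present for 717554 CpGs in T 16, the animal with the fewest, for 767744 in the next lowest (C 5) and for 826713 in the highest (C 3). The mean number was 799714 with testosterone and 805978 with cholesterol, a difference of -6264 with a standard error (SE) of 10158. Read depth per CpG was not in the table, so no counting interval is given for any level.

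The clearest difference was a small loss in the mean methylation of CpGs that are normally almost fully methylated. At the 166754 CpGs with a mean level over 80%, taken among the 475736 CpGs on the autosomes and X with a value in all 24 animals, the C animals had mean levels from 92.0 to 93.3% with a median of 92.3%. The T animals ranged from 91.3 to 92.2% with a median of 91.9%. The WSD animals ranged from 91.2 to 92.4% (median 92.2%) and the T+WSD animals from 90.9 to 91.9% (median 91.5%). C 1 was the highest animal and T+WSD 9 the lowest, and the implant groups overlapped: all 12 testosterone animals lay below the median of the cholesterol animals, and 11 of the 12 cholesterol animals lay above the median of the testosterone animals. WSD 22, at 91.2% the lowest cholesterol animal, was the exception.

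The T difference at these CpGs was -0.560 percentage points (SE 0.165, 95% confidence interval -0.904 to -0.216). An exact two-sided permutation test of the implant labels within each diet, over all 853776 relabellings, gave p = 0.00204. After Benjamini-Hochberg adjustment over the 6 classes of CpGs examined, this permutation p was 0.0122. The difference was -0.621 on chow and -0.499 on the Western-style diet. Without C 1 it was -0.478, and it remained below 0 with each animal left out in turn. Taken as the median over CpGs in place of the mean, a setting added later, the T difference was -0.333. That value did not pass (exact permutation p = 0.266). The Western-style diet itself, in the same 24 animals, had a difference of -0.393 at these CpGs.

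**Figure D1:**
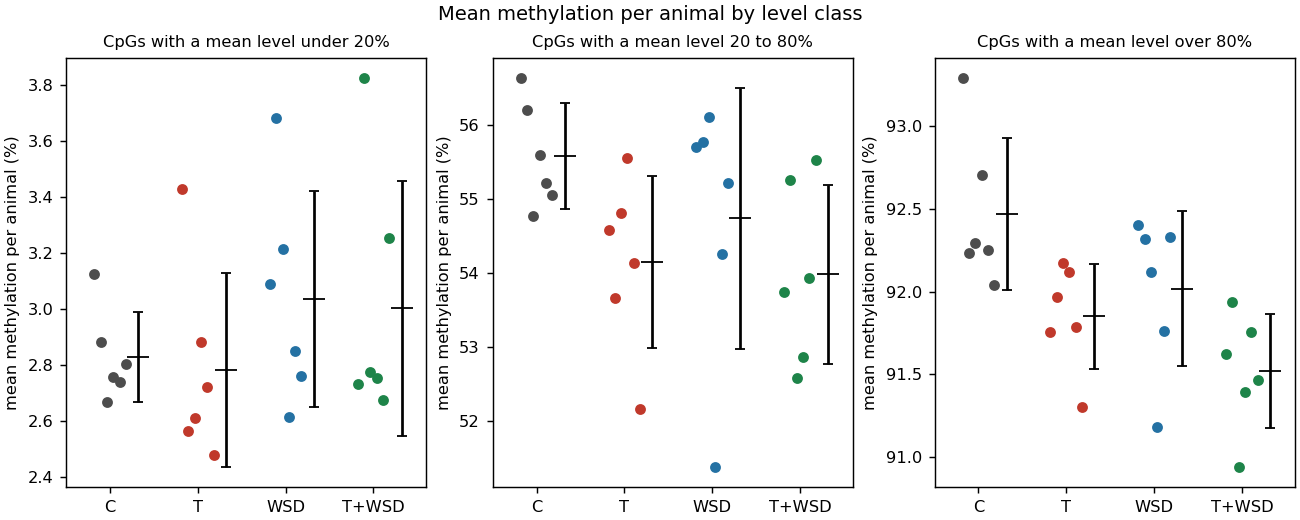
Mean methylation (%) of each animal over CpGs with a mean level under 20%, from 20 to 80% and over 80%, by group; points are animals and black marks are the group mean with its SD (n = 6). The axes do not start at 0. In the class over 80%, the C animals lie between 92.0 and 93.3% and the T animals between 91.3 and 92.2%. The WSD animals lie between 91.2 and 92.4% and the T+WSD animals between 90.9 and 91.9%, so the implants overlap on each diet.

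CpGs at other levels differed less clearly. The 205945 CpGs with a mean level under 20% had a mean of 2.93% with cholesterol and 2.89% with testosterone, a difference of -0.0404 (SE 0.145, exact permutation p = 0.778). The 103037 CpGs from 20 to 80% had means of 55.2% and 54.1%, a difference of -1.09 (SE 0.518, exact permutation p = 0.0453, adjusted 0.0679). The loss in percentage points was thus larger at intermediate levels than over 80%, but its spread between animals was larger too. Over all 475736 CpGs the mean was 45.5% with cholesterol and 45.1% with testosterone, a difference of -0.450 (SE 0.206) with an exact permutation p of 0.0382 that did not pass after adjustment (0.0679). On the autosomes alone the difference was -0.443 (adjusted p = 0.0679 by the same exact permutation test). On the X chromosome it was -0.623 (SE 0.497, exact permutation p = 0.213), which was not distinguishable from the spread between animals.

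When the CpGs were divided into bins of 10 points of mean level, a description made after the classes had been seen, the T difference was -0.0375 (SE 0.117) in the lowest bin and became more negative with level. It was -0.231 (SE 0.614) from 20 to 30%, -1.01 (SE 0.640) from 40 to 50% and -1.51 (SE 0.435) from 70 to 80%. Above that it shrank again, to -1.05 (SE 0.284) from 80 to 90% and -0.329 (SE 0.113) from 90 to 100%. The bins from 50% upward had 95% intervals below 0. The 2 diets lay close together at the top of the scale, with -1.59 on chow and -1.43 on the Western-style diet from 70 to 80%. They were further apart lower down, with -1.08 and 0.0188 from 30 to 40%, although the difference between diets there (1.10) was smaller than its SE of 1.29.

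**Figure D2:**
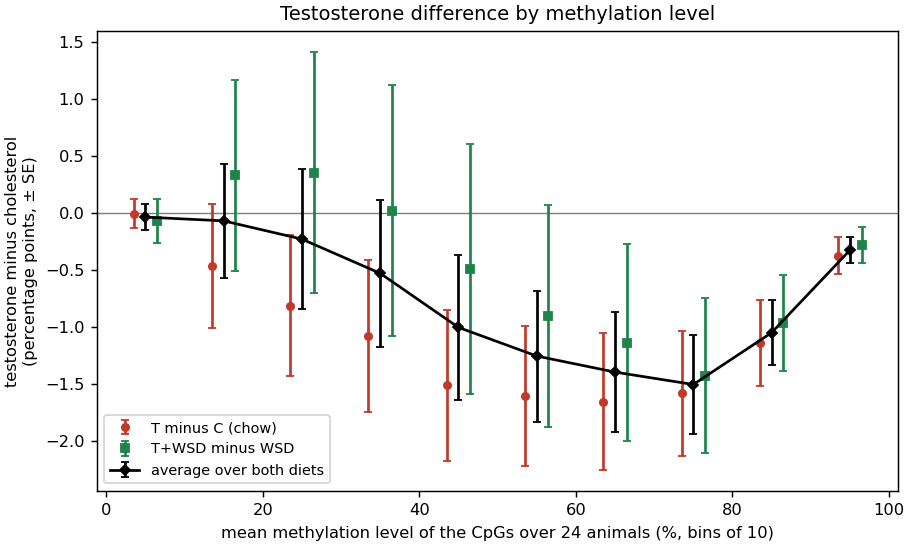
T difference (percentage points, ± SE over animals) against the mean methylation level of the CpGs in bins of 10 points, on chow, on the Western-style diet and averaged over both. The averaged difference is near 0 at unmethylated CpGs and reaches -1.51 from 70 to 80%.

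The loss over 80% was spread over the genome. It was present on each of the 21 chromosomes (20 autosomes and X), on both diets, and ranged from -0.428 on chromosome 19 to -0.742 on X. Of the single CpGs in the class, 58.3% had a lower mean with testosterone. The share was 59.3% of the CpGs from 20 to 80% and 49.7% of those under 20%. Over all 841143 CpGs, including those without a value in every animal, it was 54.3%. At the CpGs of the class over 80%, the share of values under 80% was 8.74% with testosterone and 7.25% with cholesterol. The difference was 1.49 points (SE 0.601), with 2.14 on chow and 0.833 on the Western-style diet. The share of values at exactly 100% was 19.72% and 20.04%, a difference of -0.321 points with an SE of 2.51, averaged over 2.13 on chow and -2.77 on the Western-style diet. The median over CpGs, used in place of the mean, gave a T difference of -0.333 with an exact permutation p of 0.266. By CpG density, the average loss was -0.664 (SE 0.182) in 1 kb windows with 1 to 4 measured CpGs, -0.539 (SE 0.156) with 5 to 14, and -0.305 (SE 0.200) with 15 or more. In the same order the values were -0.814, -0.570 and -0.193 on chow and -0.513, -0.508 and -0.416 on the Western-style diet. The differences between diets, at 0.301 (SE 0.364), 0.0615 (SE 0.312) and -0.222 (SE 0.4002), were smaller than their SEs, and the density classes were not tested against each other.

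The whole methylation profile differed by implant only slightly more than relabelled animals did. Over 487852 CpGs with a value in all 24 animals, unplaced scaffolds included, the share of the variation between animals that lay along the implant contrast was 4.79% on the arcsine scale, and the mean over all relabellings within diets was 4.31%. The pseudo-F, a ratio of variation between to within groups, was 1.12 against a mean of 1.00007 over the relabellings, with an exact permutation p of 0.00541.

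No single CpG was called for the T difference averaged over diets. By limma with Benjamini-Hochberg adjustment, 0 of 841143 CpGs (0%) had an adjusted p under 0.05 with a difference over 10 points, and the lowest adjusted p was 0.0703. At an unadjusted limma p under 0.05 there were 49556 CpGs (5.89%). If no CpG differed and p-values were then uniform, 5% would be expected. Of the 49556 CpGs, 16505 were higher and 33051 lower with testosterone. The lower ones made up 66.7% of these, against 54.3% of all CpGs. Within a diet some CpGs passed the same limma test. On chow there were 47 (0.00559%), 2 higher and 45 lower with testosterone, and on the Western-style diet 46 (0.00547%), 37 higher and 9 lower. Averaging CpGs in 1 kb tiles gave, for the average over diets, 0 of 100864 tiles called (0%) and a lowest adjusted p of 0.183 in limma. An unadjusted p under 0.05 was reached by 7703 tiles (7.64%), 1918 higher and 5785 lower, so that 75.1% were lower, against 60.7% of all tiles. Within a diet, 8 tiles were called on chow (0.00793%), all lower, and 3 on the Western-style diet (0.00297%), all higher. The calls within a diet cannot be told apart from the number series.

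**Figure D3:**
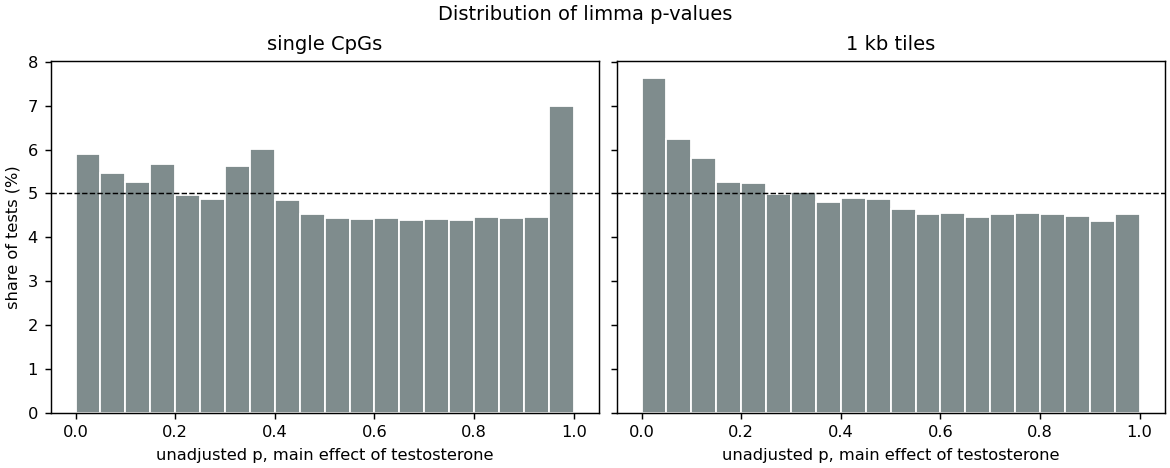
Share of tests (%) in each 0.05 step of the unadjusted limma p-value for the T main effect, for 841143 CpGs and 100864 tiles of 1 kb; the dashed line marks 5%. The first step holds 5.89% of CpGs and 7.64% of tiles, and the last step holds 7.001% of CpGs.

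The 5 CpGs with the lowest p-values all had differences under 10 points and lay close to 0 or 100%. The lowest, chr13:75459080, read 0% in every cholesterol animal with a value and in the T animals, and from 6.67 to 18.2% in the 4 T+WSD animals with a value. At chr18:34773838 every testosterone animal with a value was at 100%, while the cholesterol animals ranged from 90 to 100%. The CpG chr13:67389138 had means of 8.06% with testosterone and 0.213% with cholesterol. At chr15:94260884 the means were 4.28% and 0.693%, and at chr19:5304492 they were 96.2% and 99.8%. The last difference was on the Western-style diet, where it was -7.26 points, against 0.123 on chow (95% interval of the difference between diets -9.46 to -5.30). At chr13:67389138 it was 11.2 points on chow and 4.502 on the Western-style diet. Small variances at the ends of the scale thus accompanied the lowest p-values.

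The tile with the lowest p, chr7:698001-699000 (8 CpGs), had a mean of 66.5% with testosterone and 75.5% with cholesterol, a difference of -9.05 (SE 1.24). Testosterone animals ranged from 62.4 to 69.9% and cholesterol animals from 67.6 to 82.3%, with an overlap of the ranges by a few points. The next, chr14:125173001-125174000, had means of 69.0% and 81.8%, a difference of -12.9 (SE 2.26). Neither passed the adjusted test.

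Neighbouring CpGs were then combined. A differentially methylated region (DMR) was a run of at least 2 CpGs within 300 bp of each other whose combined p-value passed a Sidak-corrected threshold of 0.1 and whose mean difference exceeded 10 points. There were 79 DMRs, 27 higher and 52 lower with testosterone (65.8% lower). They held 589 CpGs, or 0.07% of those tested, with 0.0234% of CpGs in the higher and 0.0466% in the lower DMRs. The counts by direction rested in part on single animals. The higher DMRs numbered 17 without C 1 or without T+WSD 8, 45 without WSD 21 and 46 without C 2, and the lower DMRs numbered 84 without WSD 22. With each animal left out in turn, the lower share ran from 55.4% (without WSD 21) to 79.2% (without WSD 22). Because the T contrast chose them, their values are given as a description and no further test of T was made on them. Of 435 candidate regions, 140 passed the Sidak threshold and 61 of those failed on the size of the difference. Another 138 had a difference over 10 points but did not pass the Sidak threshold. Among regions that passed the Sidak threshold, the smallest absolute difference kept was 10.05 points and the largest left out was 9.999 points. Among regions with a difference over 10 points, the largest Sidak p kept was 0.0852 and the smallest left out was 0.104.

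The DMRs were short, with a median of 155 bp (33 to 529) and 6 CpGs (2 to 25), and their absolute differences had a median of 13.1 points, up to 28.5. Of the 589 CpGs, 586 had the sign of their DMR. Intermediate levels were common: 86.1% of the CpGs in DMRs had a mean level from 20 to 80%, against 21.96% of all CpGs, which a required difference of over 10 points favours. No single CpG inside a DMR had an adjusted limma p under 0.328. No DMR separated all 12 testosterone from all 12 cholesterol animals, and none of the 100864 tiles did (0%). The DMRs lay on 20 chromosomes and 1 unplaced scaffold, with 12 on chromosome 1, 10 on chromosome 19 and 2 on X. Chromosome 1 holds 8.32% and chromosome 19 holds 7.37% of the CpGs. One pair, on chromosome 9, lay 2755 bp apart.

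CpGs outside the edges of the DMRs were also read. Of all CpGs 54.3% were lower with testosterone, and of all tiles 60.7%. The flank counts were not tested against these shares. Of the 52 lower DMRs, 25 had measured CpGs in the flanks, and the flank difference was also negative in 18 (median -2.96). Of the 27 higher DMRs, 9 had such CpGs and 6 had a positive flank difference (median 2.68). The higher DMRs had a median level of 44.9% with cholesterol and 59.0% with testosterone, and the lower DMRs 52.5% and 39.8%.

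The 6 largest gains and 6 largest losses among DMRs with at least 3 CpGs were examined animal by animal. The largest gain was at chr14:1836367-1836668 (12 CpGs). The C animals ranged from 14.8 to 73.1% (median 29.6%) and the T animals from 37.5 to 78.7% (median 61.9%). The WSD animals ranged from 14.6 to 48.9% (median 38.9%) and the T+WSD animals from 19.2 to 73.8% (median 56.1%). The groups overlapped widely, with C 3 at 73.1% and T+WSD 11 at 19.2% lying within the range of the other implant. The T difference was 21.3 points (SE 7.71), and 7 CpGs in the flanks had a difference of -9.64, opposite in sign.

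The gain at chr15:3389978-3390051 (4 CpGs) had the narrowest spread. The C animals ranged from 35.5 to 50.1% (median 39.7%) and the T animals from 55.4 to 70.9% (median 59.0%), with no overlap on chow. The WSD animals ranged from 37.3 to 52.0% (median 42.7%) and the T+WSD animals from 43.4 to 72.9% (median 58.7%). Of the 12 testosterone animals, 10 were above every cholesterol animal, and the exceptions were T+WSD 10 and T+WSD 12. The T difference was 16.7 points (SE 3.10), with 19.6 on chow and 13.7 on the Western-style diet, and each of the 4 CpGs contributed between 12.3 and 20.7 points.

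At chr3:34750497-34750568 (6 CpGs), the C animals lay within 46.0 to 51.6% (median 49.9%) while the T animals spread from 45 to 79.2% (median 65.1%). The 4 WSD animals with a value ranged from 51.9 to 64.3% (median 57.0%), and all T+WSD animals were above them, from 69.2 to 88.2% (median 71.0%). T 18, at 45%, was the testosterone animal below every cholesterol animal, and 9 testosterone animals were above all of them. The T difference was 16.03 points (SE 3.68). This DMR contained chr3:34750525, 1 of 3 CpGs in the whole table (0.000357%) at which the testosterone and cholesterol animals with a value did not overlap. There the 11 testosterone animals ranged from 66.7 to 95.8% and the 10 cholesterol animals from 45.8 to 64.5%, a difference of 24.9 points (SE 3.93) with an adjusted limma p of 0.364.

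3 further gains lay on chromosome 1. At chr1:9974729-9975061 (12 CpGs) group means were 43.4% (C) against 63.1% (T) on chow and 54.3% (WSD) against 69.8% (T+WSD) on the Western-style diet, a T difference of 17.6 points (SE 4.19). At chr1:21094809-21094860 (3 CpGs) the T difference was 16.6 points (SE 4.19), with 5 WSD and 4 T+WSD animals measured. At chr1:162282823-162282892 (3 CpGs) it was 16.3 points (SE 4.59). The implant groups overlapped on both diets in these DMRs, and the diet differences were of the same sign as the T differences, at 8.82, 7.53 and 9.07 points in the same order.

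The largest loss was at chr12:95290021-95290082 (4 CpGs). The C animals ranged from 70 to 99.6% (median 97.5%) and the T animals from 34.3 to 79.7% (median 67.9%). The WSD animals ranged from 83.4 to 100% (median 94.5%), and the 4 T+WSD animals with a value were 33.1, 37.3, 93.6 and 94.7%. The loss was thus split among T+WSD animals, with T+WSD 10 and T+WSD 11 far below and T+WSD 9 and T+WSD 12 within the WSD range. The T difference was -28.5 points (SE 7.77), nearly the same on chow (-28.3) and on the Western-style diet (-28.8).

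A loss at chrX:103764799-103764831 (3 CpGs) was more uniform. The C animals ranged from 63.0 to 87.8% (median 79.9%) and the T animals from 45.2 to 82.8% (median 60.1%). The WSD animals ranged from 77.8 to 91.7% (median 86.8%) and the T+WSD animals from 55.6 to 75.3% (median 64.9%), with no overlap on the Western-style diet. On chow, T 15 at 82.8% lay among the C animals and C 4 at 63.0% lay nearer to the T animals. The T difference was -19.2 points (SE 3.62), with -19.1 on chow and -19.3 on the Western-style diet.

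A 381 bp stretch at chr1:122827015-122827395 (20 CpGs) lost 19.7 points on average (difference -19.7, SE 8.95), but animals of every group were dispersed. The C animals ranged from 5.41 to 72.5% and the WSD animals from 13.9 to 95.8%, while the T animals ranged from 3.61 to 42.4% and the T+WSD animals from 10.4 to 44.1%. At chr8:37710909-37710967 (3 CpGs) the T difference was -18.0 points (SE 4.74). The T+WSD animals lay from 42.4 to 55.1% and the WSD animals from 58.1 to 86.7%, with no overlap, whereas on chow the T animals (35.8 to 78.8%) overlapped the C animals (55.5 to 81.6%). These 2 regions were also the least stable: with 1 animal left out in turn they were called in 11 and 8 of 24 repeats, against 15 to 24 for the other 10 regions. Neither was called when autocorrelation was taken from z-scores.

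Losses at chrX:1237405-1237468 and chr17:91904330-91904511 were carried by the chow animals. At the X region (5 CpGs) the C animals ranged from 27.4 to 80.4% (median 64.6%) and the T animals from 9.41 to 36.3% (median 16.7%). The WSD animals ranged from 37.5 to 61.5% (median 45.2%) and the T+WSD animals from 41.9 to 59.9% (median 49.7%). The difference was therefore -41.1 points on chow and 3.39 on the Western-style diet, and these 2 differed by 44.5 points (95% interval 23.1 to 65.9). At the chromosome 17 region (6 CpGs) the C median was 59.2% against 18.3% for T, and the WSD median 50.4% against 54.8% for T+WSD. The difference was -34.5 points on chow and -2.32 on the Western-style diet, which differed by 32.1 points (95% interval 5.33 to 58.9). The averaged T differences of -18.9 and -18.4 points describe neither diet in these DMRs.

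**Figure D4:**
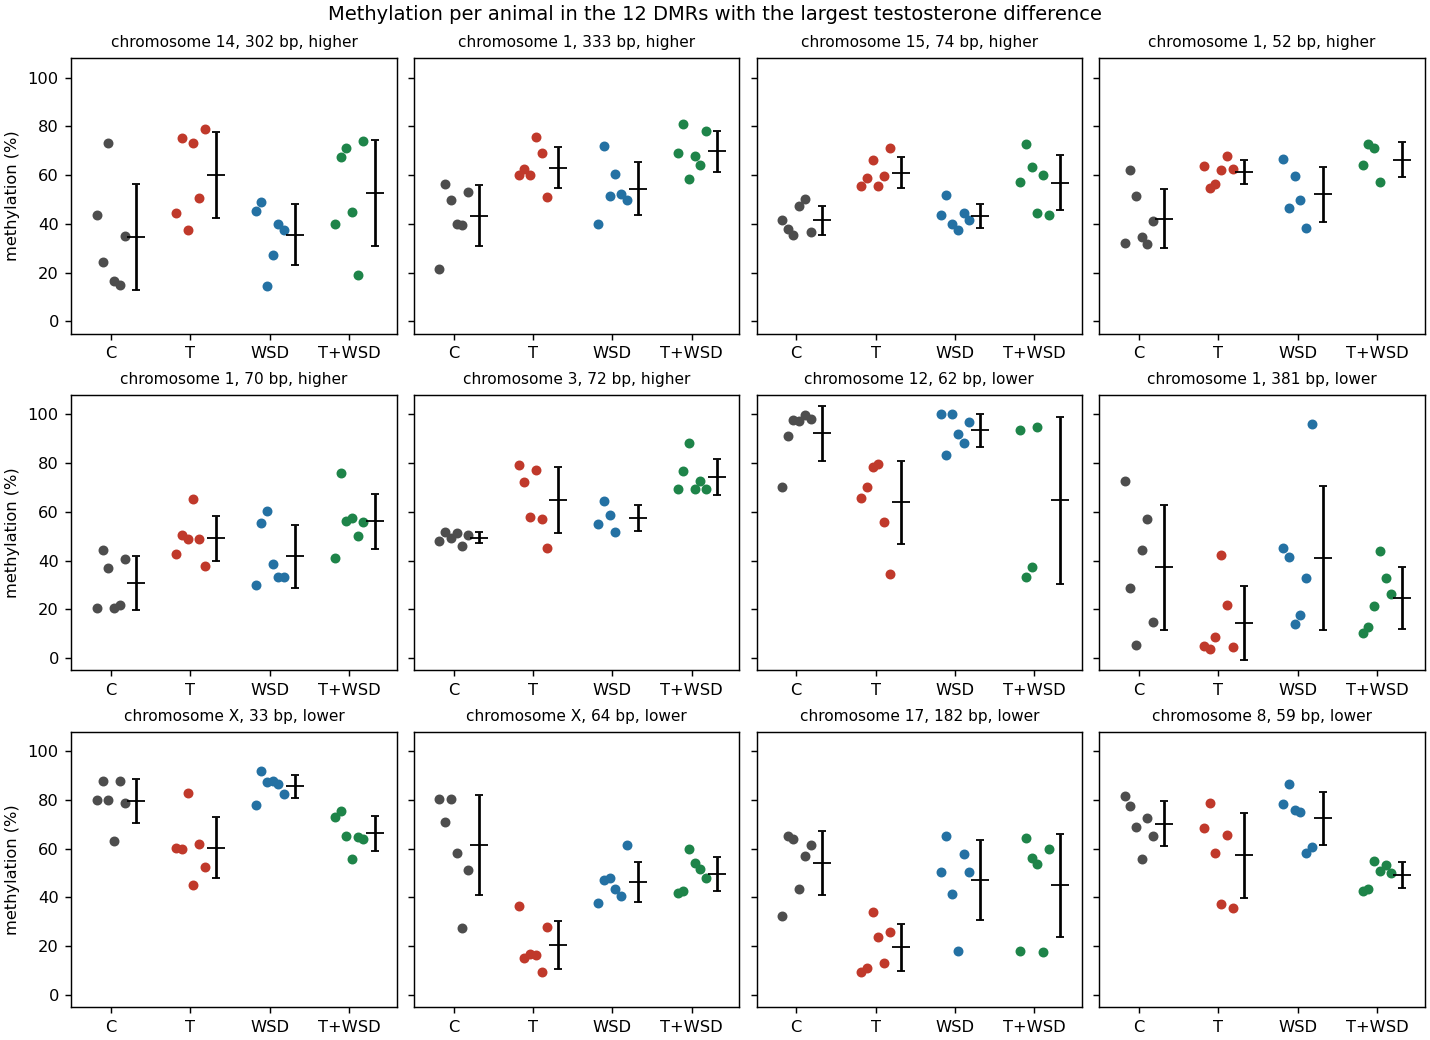
Methylation (%) of each animal in the 12 DMRs with the largest gains (first 6 panels) and losses (last 6 panels), by group; points are animals with a value and black marks are the group mean with its SD. Both implants overlap in each panel when the diets are pooled, and the T animals at the 64 bp X region lie from 9.41 to 36.3% while the T+WSD animals lie from 41.9 to 59.9%.

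Across all 79 DMRs, the T difference had the same sign on both diets in 77 and exceeded 10 points on both in 41, which the averaging over diets in the rule favours. Larger differences occurred on the Western-style diet in 34 and on chow in the other 45. Within a diet, the testosterone animals with a value did not overlap the cholesterol animals with a value in 7 DMRs on chow and 11 on the Western-style diet. Some of these DMRs lacked a value in 1 or more animals. The share of all tiles without overlap was 0.529% on chow and 0.523% on the Western-style diet, so the DMRs exceed it as their selection implies. In 6 DMRs the unadjusted 95% interval of the difference between diets excluded 0, as it did in 5.41% of all tiles, so the count is not read as particular to the DMRs. One of them, chr19:45316411-45316481 (7 CpGs), singled out after its values were seen, was -18.0 points on chow and 41.2 on the Western-style diet, and its averaged gain of 11.6 points hid opposite directions.

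**Figure D5:**
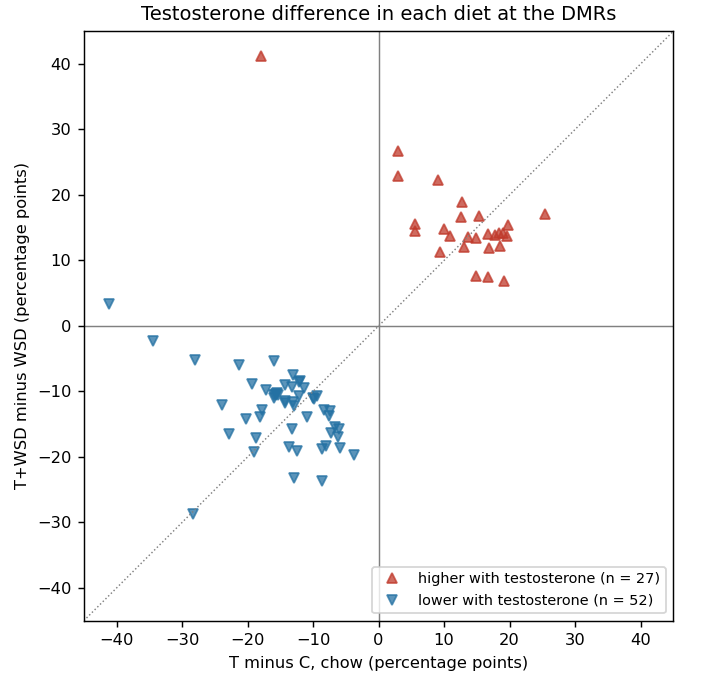
T difference (percentage points) on the Western-style diet against that on chow for the 79 DMRs, 27 higher and 52 lower with testosterone; the dotted line marks equality. In 77 DMRs both differences have the same sign, and the exceptions are at -18.0 and 41.2, and at -41.1 and 3.39.

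The diets were also compared without the pooled selection. DMRs were called in each diet alone, and their difference was read in the other diet, which shares no animals. In each diet the implants also differed in number series, in reverse order. A sign that differs between diets therefore cannot be told apart from a difference between the series. On chow there were 63 DMRs (11 higher, 52 lower, 0.0484% of CpGs), and on the Western-style diet 89 (43 higher, 46 lower, 0.0925% of CpGs). Of the 63 chow DMRs, 26 (41.3%) had the same sign on the Western-style diet, 5 by over 10 points, and 14 had the opposite sign by over 10 points. Of the 89 DMRs of the Western-style diet, 56 (62.9%) had the same sign on chow, 2 by over 10 points, and 9 had the opposite sign by over 10 points. Tiles were also chosen by size alone. Of those with a difference over 10 points on chow, 56.5% had the same sign on the Western-style diet, and of those over 10 points on the Western-style diet, 55.2% had the same sign on chow. Among tiles over 10 points on both diets, 306 had the same sign and 222 the opposite sign. For all 100864 tiles the share with the same sign was 52.3%, and Pearson's r between the diets across tiles was 0.0562, a description over tiles that are not independent. Of the chow DMRs 14 overlapped a pooled DMR, as did 16 of the DMRs of the Western-style diet.

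Animals also differed in how far they followed the pooled DMRs. With each DMR divided at the midpoint of the implant means, the share of DMRs in which an animal lay on the side of its own implant ran from 71.8 to 94.9% in C and from 73.1 to 92.4% in T+WSD. It ran from 52.6 to 77.9% in T and from 51.3 to 89.7% in WSD, with the lowest values in WSD 22 and T 15. These shares describe the animals that chose the DMRs and are no test. The diet difference, estimated in the same animals, had a median of 9.07 points in the 27 higher DMRs and of -5.23 in the 52 lower DMRs, against T medians of 14.3 and 12.97 in absolute value.

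The other 2 CpGs without overlap between implants were on chromosome 19 and outside any DMR. At chr19:753574, the 8 testosterone animals with a value ranged from 11.8 to 44.4% and the 9 cholesterol animals from 0 to 9.68%, a difference of 18.3 points (SE 3.98). At chr19:1918779, the 8 testosterone animals ranged from 64.7 to 74.5% and the 10 cholesterol animals from 75.6 to 90.5%, a difference of -13.6 points (SE 2.16). Their adjusted limma p-values were 0.557 and 0.412, and between 6 and 7 animals had no value at these positions.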

How the data were processed

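RRBS libraries of omental WAT DNA from 24 animals, 1 per animal, were read from 1 table. Per the labels, groups and animal numbers came from the sample titles, and no column belonged to another sample. The authors deposited percent methylation per CpG: their reads were checked with FastQC 0.11.5, trimmed with Trim Galore 0.4.2 and aligned with Bismark 0.16.1 to rheMac8, and CpGs with a minimum read coverage in at least 4 of 6 animals per group were kept. Depth beyond this minimum is unknown, so precision rests on the spread between animals. The p-values set each difference against that spread or against relabelled animals.

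Percent values were transformed by the arcsine of the square root and fitted as 4 group means, with the T contrast averaged over diets. The limma fit was rewritten in Python. A run of limma 3.58.1 (R 4.3.3) on the CpG contrast gave the same lowest adjusted p (0.0703). It also gave 49556 CpGs with an unadjusted p under 0.05, and R limma was used for the mean-variance trend alternative. CpGs and 1 kb tiles with at least 3 CpGs were called at a Benjamini-Hochberg adjusted p under 0.05 and a difference over 10 points. The DMR method of the authors (Comb-p) was rewritten in Python 3.11.15 with numpy 2.4.6 and scipy 1.17.1, using rank autocorrelation in steps of 50 bp, joining within 300 bp and a Sidak threshold of 0.1. Pseudo-F and class means were tested by exact permutation of implants within diets. SEs and 95% intervals of differences came from the pooled variance within the 4 groups. CpG and DMR calling was tried on data simulated for 1 chromosome, with each CpG drawn independently of its neighbours. The permutation test was run on random values, and the other steps were not tried on simulated data. Regions named are the 6 largest gains and losses among DMRs with at least 3 CpGs, and CpGs named are the 5 with the lowest p. Alternatives covered the transformation, model, filters, thresholds, tile size and each animal left out. The members and lists were chosen with earlier results of these data known. Promoters, gene lists and marker genes were not analysed here, because no annotation or sequence of rheMac8 was used.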

Additional observations from a re-analysis of the deposited data

Results flagged for a closer look

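Among 76 groups of animals examined (the named regions, the class means and the number of CpGs with a value), 3 held an animal far from the others by Dixon's criterion, and chance alone marks about 1 in 20 groups, or 3.8 here. C 1 had the highest mean over the autosomes among the C animals, at 46.0%. C 1 had the lowest value among the C animals at chr12:95290021-95290082, at 70%. C 4 was the lowest of the C animals at chrX:103764799-103764831, at 63.0%.

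At chrX:1237405-1237468 the T difference on the Western-style diet exceeded that on chow by 44.5 points, and at chr17:91904330-91904511 by 32.1 points. The 95% intervals of both differences between diets excluded 0. The regions had been chosen on the averaged T contrast, and the intervals are not adjusted for the 12 regions examined. Both differences between diets cannot be told apart from the number series.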

How the results depend on the processing

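The counts of called CpGs and tiles were 0 under each planned transformation, model, filter and threshold that was run for them, and leaving out genotype-like CpGs was run for CpGs and DMRs but not for tiles. With each animal left out in turn, between 0 and 6 CpGs were called (6 without WSD 23, 2 without WSD 21, and 1 without T+WSD 10, T 18, WSD 19 or WSD 24) and between 0 and 1 tiles (1 without T 15). The 79 DMRs became 129 (37 higher, 92 lower) with a minimum difference of 5 points and 60 (17 higher, 43 lower) with CpGs of 5 to 95% alone, and otherwise numbered 70 to 85 under the planned settings. With autocorrelation taken from z-scores or from -log10 p, settings chosen after seeing the data, there were 53 (19 higher, 34 lower) and 70, and with animals left out 61 (without WSD 19) to 113 (without C 2). No named region changed sign. The mean over all CpGs was -0.411 with an exact permutation p of 0.227 when every CpG with a value in each animal was used, and it ranged from -0.570 (without WSD 22) to -0.374 (without T 18), with p at or above 0.05 in 11 of 24 repeats and up to 0.0768. The difference over 80% ranged from -0.644 to -0.478 with exact permutation p from 1.1e-04 to 0.00465. It was -0.329 for CpGs over 90% and -0.697 over 70%, levels chosen after seeing the data, while the median over CpGs, also added later, was -0.333 with an exact permutation p of 0.266, and the cause was not tested. With animals left out, pseudo-F ranged from 1.07 (without C 1, exact permutation p = 0.0474) to 1.14, and it was 1.21 on untransformed percent and 1.203 on the 10000 most variable CpGs (exact permutation p of 7.31e-04 and 0.0234). No paired analysis was possible because the animal numbers differ between groups. Promoter alternatives were not run, since no annotation of the build was used here.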
